A study of Homo sapiens with 4 samples.

Results

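The 10 genes described here carry the unfolded protein response and the amino acid stress response: the sensors EIF2AK3, ERN1 and ATF6, the transcription factors ATF4, XBP1 and DDIT3, the chaperone HSPA5, the pseudokinase TRIB3 and the amino acid transporters SLC7A5 and SLC7A11. They were taken as the transcript clusters (the array's gene-level features) whose platform symbol is that single gene, and each of the 10 had 1 cluster among the 22465 genes measured. The set was selected on the log2 differences between the 2 groups, in which EIF2AK3 is lower and SLC7A5 higher, so the differences of the 10 genes are given as descriptions without a test.

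The cells were SH-SY5Y, a human neuroblastoma cell line that acquires neuronal traits upon differentiation. The LSD1+8a shRNA group (2 arrays) had been infected with a short hairpin RNA against LSD1+8a, a neuronal isoform of the demethylase LSD1 (encoded by KDM1A) carrying the extra exon 8a, and the control shRNA group (2 arrays) with a control hairpin. Both groups then received 10 μM retinoic acid for 4 days and, after washing, 50 ng/mL BDNF in medium without serum for 3 days. Every array thus comes from serum-deprived cells given this treatment, and none from cells treated with an agent that stresses the endoplasmic reticulum. The labels do not say whether several hairpins, clones or separate cultures were used, so the spread between arrays may be technical.

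Cells that fold many secreted proteins monitor the endoplasmic reticulum (ER) with these 3 membrane sensors. EIF2AK3, also called PERK, phosphorylates the initiation factor eIF2, which slows translation in general and favours translation of ATF4. ERN1, also called IRE1, splices XBP1 mRNA into its active form, and ATF6 is cut in the Golgi to release a transcription factor. The amino acid sensor EIF2AK4 (GCN2) feeds into the same eIF2 and ATF4 route, whose targets include DDIT3 (CHOP), TRIB3 and amino acid transporters. Several of these steps act on translation, splicing or protein cleavage, which a gene-level array signal does not measure.

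Promoter sequences are shown for the pair of genes with the largest differences and for the pair whose windows hold the ER stress element, that is CCAAT, 9 bases of any kind and CCACG, which ATF6 and NF-Y are known to bind. They are the 250 bases before the RefSeq start on GRCh38.p14, written 5′ to 3′ on the gene's strand. The windows of EIF2AK3 (chr2:88627465-88627714, minus strand, with the CCAAT letters of either strand in capitals), SLC7A5 (chr16:87869508-87869757, minus strand, with the E-box CACGTG in capitals), HSPA5 (chr9:125241344-125241593, minus strand) and XBP1 (chr22:28800570-28800819, minus strand, both with the ER stress element in capitals) read as follows.
EIF2AK3: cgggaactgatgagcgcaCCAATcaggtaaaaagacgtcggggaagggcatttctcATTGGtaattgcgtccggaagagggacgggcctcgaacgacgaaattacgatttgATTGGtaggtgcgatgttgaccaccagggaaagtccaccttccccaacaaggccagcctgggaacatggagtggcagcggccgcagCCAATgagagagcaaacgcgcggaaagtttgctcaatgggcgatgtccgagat
SLC7A5: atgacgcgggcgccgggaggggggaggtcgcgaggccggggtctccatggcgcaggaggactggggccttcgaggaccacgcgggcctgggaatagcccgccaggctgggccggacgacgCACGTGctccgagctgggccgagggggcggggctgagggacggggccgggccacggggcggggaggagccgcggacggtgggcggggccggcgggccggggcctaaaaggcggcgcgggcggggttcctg
HSPA5: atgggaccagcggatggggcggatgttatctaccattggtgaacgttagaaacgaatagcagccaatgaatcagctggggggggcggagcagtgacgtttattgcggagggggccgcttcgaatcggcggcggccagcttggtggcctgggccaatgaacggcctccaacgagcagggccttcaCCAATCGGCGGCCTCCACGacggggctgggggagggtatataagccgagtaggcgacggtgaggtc
XBP1: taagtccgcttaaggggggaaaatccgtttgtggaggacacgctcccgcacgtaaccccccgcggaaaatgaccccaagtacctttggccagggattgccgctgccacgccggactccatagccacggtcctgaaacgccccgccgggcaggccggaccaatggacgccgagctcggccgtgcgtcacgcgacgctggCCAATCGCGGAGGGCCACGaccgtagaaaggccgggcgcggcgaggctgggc

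Windows reaching 50 bases past the start were searched on both strands. RefSeq windows were at hand for 9 of the 10 genes (14 windows, as some genes have several starts), and SLC7A11 had none in the table. The ER stress element was present in 2 of these genes, HSPA5 and XBP1, and in 27 of 35116 windows in all (0.0769%). It lay 66 to 48 bases before the start of HSPA5 and 52 to 34 bases before that of XBP1. The amino acid response letters TGATGNAA, which ATF4 with C/EBP partners is known to bind, were in 0 of the 9 genes' windows and in 3.62% of all windows. CACGTG was in the windows of SLC7A5 and ATF4 and in 7.26% of all windows. CCAAT, which is also part of the ER stress element, was in the windows of 5 of the 9 genes, among them EIF2AK3 with 4 copies before its start, and in 34.6% of all windows. The EIF2AK3 window lies inside the RefSeq span of the gene, as another transcript starts further upstream. These matches are letters in a window, not measured binding.

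The sensor EIF2AK3 was 1.97-fold lower with the LSD1+8a shRNA, the transporter SLC7A5 was 1.86-fold higher, and the other 8 genes differed by less than 0.3 on the log2 scale. EIF2AK3 had log2 signals of 7.23 and 7.24 with the LSD1+8a shRNA, against 8.23 and 8.21 with the control shRNA. The gap between the groups was wide beside the gaps within them: every pairing of an LSD1+8a array with a control array gave a difference between -1.0 and -0.96, while the arrays differed by 0.014 within the LSD1+8a group and by 0.025 within the control group. The mean difference was -0.98 ± 0.08 (limma SE, n = 2 each). By size it was the 150th largest fall of the 22465 genes. In RNA from a whole culture, fewer cells of a type and less RNA per cell cannot be told apart.

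The other sensors moved little. ERN1, the IRE1 kinase and endonuclease, read 7.14 and 7.12 with the LSD1+8a shRNA, against 7.0 and 7.07 with the control shRNA. ATF6 read 8.28 and 8.30 with the LSD1+8a shRNA, against 8.48 and 8.62 with the control shRNA. Neither gene's groups overlapped, but the differences were small, at 0.09 ± 0.08 for ERN1 and -0.26 ± 0.09 for ATF6 (log2, limma SE, n = 2 each). ERN1 changed sign, to -0.03, when the arrays were centred on their medians. ATF6 was lower under every scaling run, from -0.38 with centred medians to -0.15 after quantile normalization.

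The transcription factors overlapped between the groups. ATF4, the factor whose translation eIF2 phosphorylation favours, read 8.04 and 8.29 with the LSD1+8a shRNA, against 8.2 and 8.25 with the control shRNA. XBP1, the target of IRE1 splicing, read 7.83 and 7.66 with the LSD1+8a shRNA, against 7.71 and 7.77 with the control shRNA. For both, the control arrays lay between the LSD1+8a arrays. The mean differences were -0.06 ± 0.10 for ATF4 and 0.01 ± 0.09 for XBP1 (log2, limma SE, n = 2 each). DDIT3, the stress-induced factor CHOP, read 5.62 and 6.10 with the LSD1+8a shRNA, against 6.01 and 6.22 with the control shRNA. Its difference of -0.25 ± 0.16 rested on LSD1+8a replicate 1, and without that array it was -0.01. The cluster signal does not separate spliced from unspliced XBP1.

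HSPA5, the chaperone BiP that keeps the sensors inactive and is the standard marker of their activation, was level between the groups. It read 9.97 and 9.87 with the LSD1+8a shRNA, against 9.89 and 10.04 with the control shRNA. The ranges overlapped, and the mean difference of -0.05 ± 0.09 (log2, limma SE, n = 2 each) was smaller than the gap between the control arrays (0.156). It turned to 0.10 after cyclic loess and 0.12 after quantile normalization, and to -0.17 with centred medians. TRIB3, a pseudokinase that ATF4 and CHOP induce and that restrains AKT, read 7.81 and 8.07 with the LSD1+8a shRNA, against 7.72 and 7.75 with the control shRNA. It stood slightly higher without overlap, by 0.21 ± 0.11, and by 0.07 without LSD1+8a replicate 2.

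Of the transporters, SLC7A5 was higher on both LSD1+8a arrays, and SLC7A11 was too variable to give a direction. SLC7A5 (LAT1), which exchanges glutamine for leucine and other large neutral amino acids, read 9.32 and 8.82 with the LSD1+8a shRNA, against 8.06 and 8.30 with the control shRNA. Both LSD1+8a arrays lay above both control arrays, by 0.53 to 1.26. The mean difference was 0.89 ± 0.16 (log2, limma SE, n = 2 each), the 30th largest rise of the 22465 genes. SLC7A11 (xCT), which imports cystine in exchange for glutamate and is also induced by NRF2, read 4.10 and 5.55 with the LSD1+8a shRNA, against 4.56 and 4.82 with the control shRNA. The LSD1+8a arrays thus lay on either side of the controls, 1.45 apart. SLC7A11 lies near array background: the median of the background features with GC counts of 13 to 18 was 4.71 and 4.72 on the LSD1+8a arrays and 4.50 and 4.43 with the control shRNA. Its difference was 0.86 when LSD1+8a replicate 1 was left out and -0.59 when replicate 2 was, so no direction is given.

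**Figure D1:**
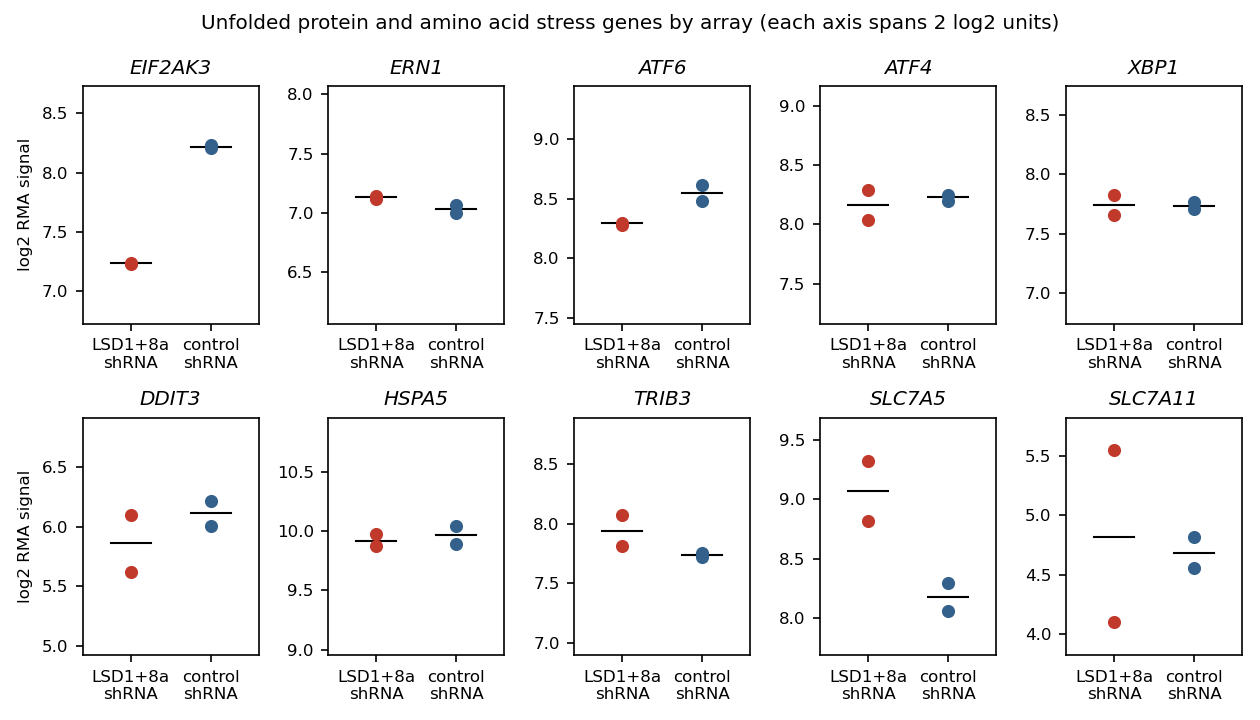
Log2 RMA signal (y axis, each panel spanning 2 log2 units) of the 10 genes on the LSD1+8a shRNA arrays (red, left) and the control shRNA arrays (blue, right), with 1 point per array and a line at the group mean. EIF2AK3 is lower and SLC7A5 higher with the LSD1+8a shRNA beyond the gaps between replicates, and the LSD1+8a points of SLC7A11 lie 1.45 apart.

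The groups did not overlap for 5 of the 10 genes, 3 higher (ERN1, TRIB3, SLC7A5) and 2 lower (EIF2AK3, ATF6). Over all genes the groups did not overlap for 74.4%, with 46.7% higher and 27.7% lower, so a lack of overlap by itself does not set these genes apart. Differences also depended on level. Genes within 0.5 log2 of the mean level of EIF2AK3 had a median difference of -0.06, with quartiles at -0.27 and 0.12, and those around SLC7A5 a median of -0.08, with quartiles at -0.27 and 0.07. EIF2AK3 and SLC7A5 lay outside these quartiles. DDIT3, at a level where other genes had a median difference of 0.17, lay below the lower quartile there of -0.11, and TRIB3 above the upper quartile of 0.11 around its own level.

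**Figure D2:**
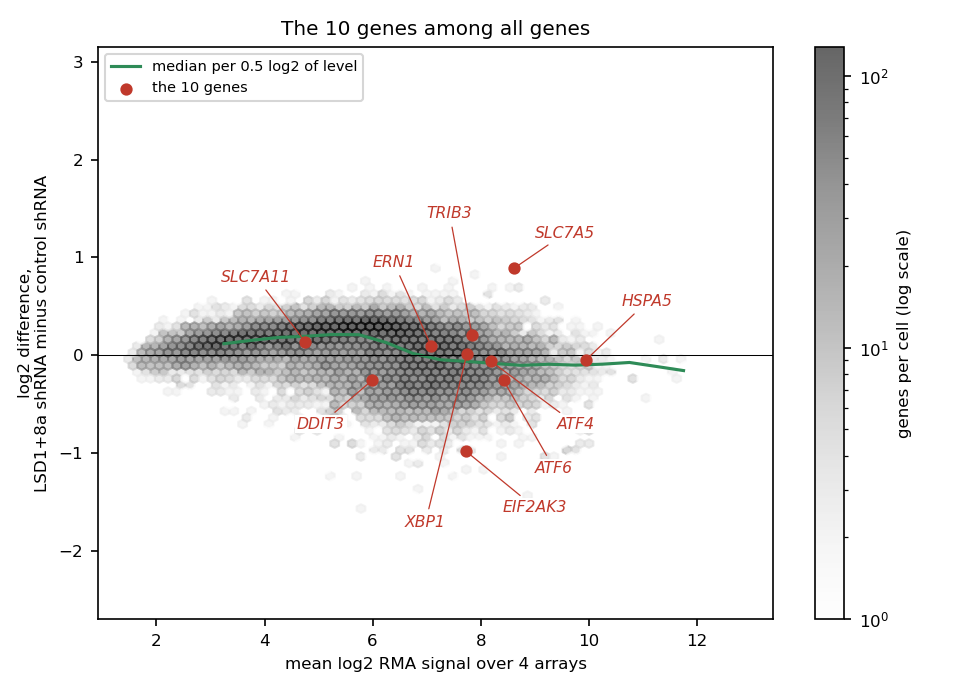
Log2 difference (y axis, LSD1+8a shRNA minus control shRNA) against mean log2 RMA signal over the 4 arrays (x axis) for all 22465 genes (grey, darker cells hold more genes), with the running median (green) and the 10 genes (red). EIF2AK3, SLC7A5, DDIT3 and TRIB3 lie outside the quartiles of genes of their level. EIF2AK3 and SLC7A5 lie furthest from 0, and the other 8 lie within 0.3 of it.

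EIF2AK3 and SLC7A5 kept their directions under the settings run, and the size for SLC7A5 depended on which array was left out. With 1 array left out in turn, EIF2AK3 lay between -0.99 and -0.97 and SLC7A5 between 0.65 and 1.14. After cyclic loess, a normalization between arrays that removes dependence on level, EIF2AK3 was at -0.93 and SLC7A5 at 1.00, and with centred array medians they were at -1.10 and 0.77.

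**Figure D3:**
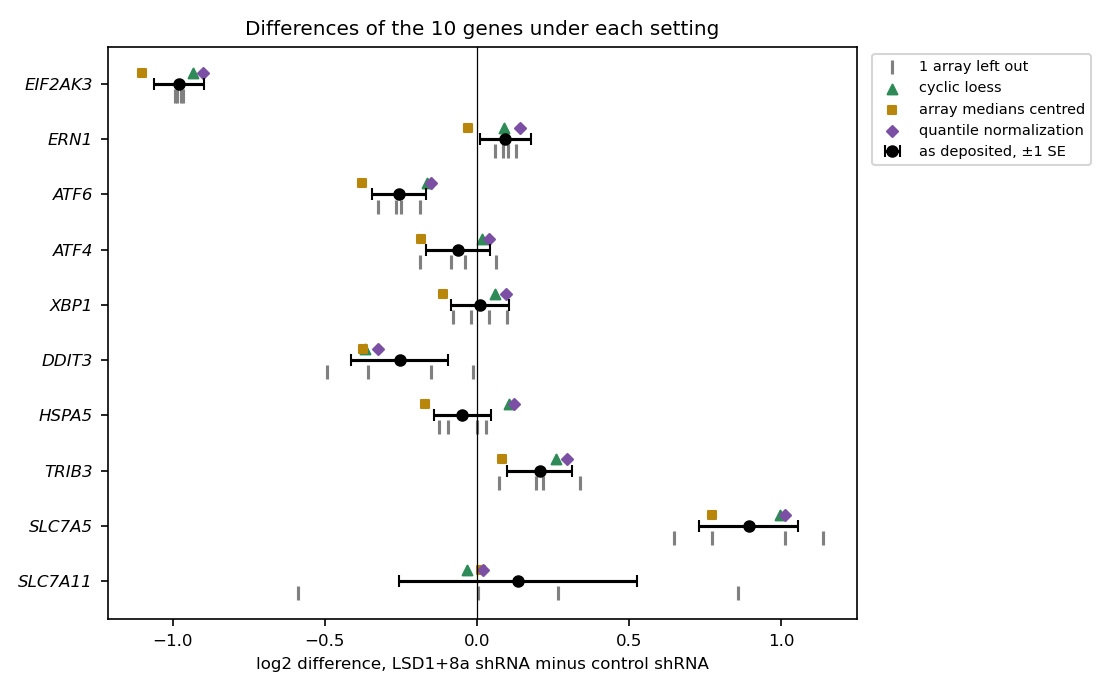
Log2 difference (x axis, LSD1+8a shRNA minus control shRNA) of the 10 genes as deposited (black, bars are 1 limma SE), with 1 array left out (grey ticks), and after cyclic loess (triangles), centring of array medians (squares) and quantile normalization (diamonds). EIF2AK3 stays between -1.10 and -0.90 and SLC7A5 between 0.65 and 1.14, while ERN1, ATF4, XBP1, HSPA5 and SLC7A11 have settings on both sides of 0.

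The rest of both pathways was read from 273 other genes in 13 lists by role, of which 245 were measured, 12 lay on clusters with several symbols and 16 were unnamed here. Few of them passed limma's test. Of the 245, 9 rose and 27 fell (Benjamini-Hochberg adjusted p under 0.05 over all genes), and 209 did not pass. That is 14.7% of the lists, against 23.3% of all genes (12.1% higher and 11.2% lower). Because differences depended on signal, the lists were also set beside genes of like signal: 218 of the 245 had a signal above that of the median gene, where 9.25% of all genes rose and 17.5% fell, and of those 218, 6 rose and 26 fell. The median difference over the 245 was -0.07, against 0.08 over all genes. Of the 245, 187 (76.3%) read higher on control replicate 2 than on control replicate 1, with a median gap of 0.09. Over all genes these values were 43.5% and -0.02. Genes of like signal were not compared for this gap, so it is not read as particular to the lists. The part of the gap in the median difference was not tested. The split of calls depended on the scaling, with 6 higher and 8 lower after cyclic loess (all genes: 3.12% higher and 8.5% lower), 11 and 7 after quantile normalization and 3 and 46 with centred medians. Leaving out control replicate 1 or control replicate 2 left 0 limma calls among the 245 (80 and 45 genes had an unadjusted p below 0.05). Leaving out LSD1+8a replicate 1 left 9 calls, and leaving out LSD1+8a replicate 2 left 16. Of the 34 list genes past the test that are named by rule below, none changed direction under these settings and 9 still passed after cyclic loess.

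Upstream of ATF4, 16.7% of the translation control list fell, against 17.5% of genes with a signal above that of the median gene. Rises were 0%, against 9.25% of those genes. On control replicate 2, 17 of the 18 genes of this list read higher than on control replicate 1, with a median gap of 0.07. Of 18 genes for eIF2 kinases, eIF2 and eIF2B subunits and the eIF2 phosphatase, 0 rose, 3 fell and 15 did not pass, with a median of -0.24 (-0.20 after cyclic loess). EIF2AK2 (PKR), the eIF2 kinase that binds double-stranded RNA and is itself induced by interferon, fell 1.45-fold: it read 8.74 and 8.86 with the LSD1+8a shRNA, against 9.17 and 9.51 with the control shRNA (limma adjusted p = 0.0318). EIF2S3, the gamma subunit of eIF2, fell by 0.34 and EIF2A, a separate initiation factor, by 0.33 on the log2 scale, and after cyclic loess none of these 3 passed (limma adjusted p = 0.0668 to 0.155), while 1 other gene of the list did. Other eIF2 genes are named for their role after their values were seen. The amino acid sensor EIF2AK4 (GCN2) read 7.08 and 7.10 with the LSD1+8a shRNA, against 7.30 and 7.47 with the control shRNA, a difference of -0.29 that did not pass (limma adjusted p = 0.0547). The haem-regulated kinase EIF2AK1 differed by -0.18 and the alpha subunit EIF2S1, the subunit that these kinases phosphorylate, by -0.35, and neither passed (limma adjusted p = 0.151 and 0.0516). PPP1R15A (GADD34), the stress-induced subunit that directs dephosphorylation of eIF2, differed by 0.19 without passing (limma adjusted p = 0.179).

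Transcription factors that act with ATF4 showed 0 rises and 2 falls among 11 genes, with a median of 0.10. That is 18.2% of the list, against 23.3% of all genes. FOXO3, a forkhead factor, fell 1.39-fold, and CREB1, the cAMP-responsive bZIP factor, fell 1.37-fold (limma adjusted p = 0.0249 and 0.0218). CREB1 also passed after cyclic loess (adjusted p = 0.0290) and FOXO3 did not (adjusted p = 0.0684). ATF3, an early ATF4 target named for its role, read 6.32 and 6.58 with the LSD1+8a shRNA, against 6.39 and 6.32 with the control shRNA, which overlap.

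Among the amino acid transporters other than the 2 already described, 3 of 20 rose and 1 fell, with a median of 0.11. SLC36A1 (PAT1), a proton-coupled amino acid transporter of lysosomes, rose 1.55-fold: it read 7.54 and 7.35 with the LSD1+8a shRNA, against 6.83 and 6.80 with the control shRNA (limma adjusted p = 0.0147, and 0.0261 after cyclic loess). SLC7A8 (LAT2), which also carries neutral amino acids, rose 1.35-fold and SLC7A10 1.30-fold, and neither passed after cyclic loess (limma adjusted p = 0.0578 and 0.0651). SLC7A8 lay as little as 0.86 above the background median, which was itself higher on the LSD1+8a arrays than on the control arrays. SLC6A15, a neuronal transporter of branched-chain amino acids and proline, fell 1.5-fold (limma adjusted p = 0.0458, and 0.0742 after cyclic loess).

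SLC3A2 and SLC7A1 are named for their role after their values were seen. SLC3A2 (4F2hc), the heavy chain that both SLC7A5 and SLC7A11 need to reach the cell surface, read 8.04 and 8.13 with the LSD1+8a shRNA, against 7.98 and 7.95 with the control shRNA, a difference of 0.12 ± 0.09 (SE; limma adjusted p = 0.312). SLC7A1, the cationic amino acid transporter and an ATF4 target, read 9.18 and 8.63 with the LSD1+8a shRNA, against 8.42 and 8.54 with the control shRNA (difference 0.43, limma adjusted p = 0.0886). As for SLC7A5, LSD1+8a replicate 1 was the higher array of its group.

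Genes of amino acid synthesis and tRNA charging held 1 rise and 7 falls, which is not read as particular to them. The falls were 4 of 20 and 3 of 20 genes, on either side of the 17.5% among all genes with a signal above that of the median gene. Rises were 1 of 20 and 0 of 20, against 9.25% of those genes. In the lists of synthesis and tRNA charging, 18 and 20 genes had such a signal. Of 20 measured genes of amino acid and one-carbon synthesis, 1 rose and 4 fell, with a median of -0.16. MTHFD1, a folate enzyme, fell 1.32-fold, GLUL, glutamine synthetase, 1.29-fold and ALDH18A1, of proline synthesis, 1.24-fold, while BCAT2, the mitochondrial branched-chain aminotransferase, rose 1.23-fold. GLUL passed after cyclic loess (limma adjusted p = 0.0442), and MTHFD1, ALDH18A1 and BCAT2 did not (ALDH18A1 0.0652, BCAT2 0.0519). ASNS, asparagine synthetase and the best known ATF4 target of this kind, read 7.2 and 7.57 with the LSD1+8a shRNA, against 7.45 and 7.79 with the control shRNA, which overlap (limma adjusted p = 0.259; named for its role). Of 20 measured genes for cytosolic aminoacyl-tRNA synthetases and the tRNA exporter, 0 rose and 3 fell, with a median of -0.12. They were XPOT, the tRNA exporter (1.45-fold), LARS1, the leucyl enzyme (1.35-fold), and KARS1, the lysyl enzyme (1.23-fold), and after cyclic loess none of the 3 passed (limma adjusted p = 0.0609 to 0.105) while 1 other gene of the list passed as higher.

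The remaining ATF4 stress targets went both ways, with 2 of 17 higher, 2 lower and a median of 0.07. The share past the test was 23.5%, against 23.3% of all genes. TXNIP, an inhibitor of thioredoxin and of glucose uptake, fell 2.62-fold: it read 6.96 and 7.75 with the LSD1+8a shRNA, against 8.47 and 9.01 with the control shRNA (limma adjusted p = 0.0223). KLHL24, a ubiquitin ligase adaptor, fell 1.72-fold and ADM2, adrenomedullin 2, rose 1.33-fold (limma adjusted p = 0.0115 and 0.0271). These 3 also passed after cyclic loess (limma adjusted p = 0.0456, 0.0256 and 0.0344), but TXNIP did not with trended and robust moderation (0.0612). Without control replicate 1 the log2 differences were -1.66 for TXNIP, -0.82 for KLHL24 and 0.46 for ADM2. Without control replicate 2 they were -1.12, -0.74 and 0.37. FGF21 rose by 0.33 on the log2 scale, but its values, 4.74 and 4.77 on the LSD1+8a shRNA arrays and 4.48 and 4.37 with the control shRNA, lie at array background. TXNIP is also known to respond to glucose. CHAC1, the glutathione-degrading enzyme that is a sensitive ATF4 target, and SESN2, the leucine sensor sestrin 2, were named for their role and differed by 0.10 and 0.13 without passing (limma adjusted p = 0.395 and 0.349).

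In the IRE1 branch, 1 of 23 measured partners and XBP1 targets rose and 4 fell, with a median of -0.19. That is 21.7% of the list, against 23.3% of all genes. SSR3, a subunit of the translocon-associated complex, fell 1.33-fold, TMED2, a cargo receptor between ER and Golgi, 1.29-fold and SPCS2, a signal peptidase subunit, 1.27-fold. ERN2, the gut homologue of ERN1, rose 1.29-fold. After cyclic loess 0 of the 23 passed. DNAJB9, a BiP cofactor that spliced XBP1 induces strongly, was named for its role and read 6.2 and 6.28 with the LSD1+8a shRNA, against 6.16 and 6.32 with the control shRNA. Its mean difference was 0.00 ± 0.09 (SE), and EDEM1, an XBP1-induced degradation lectin, differed by 0.04 ± 0.10 (SE), both with overlapping groups.

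In the ATF6 branch, 0 of 12 relatives and processing genes rose and 2 fell, with a median of -0.11. CREBZF, a bZIP cofactor, fell 1.32-fold and NFYB, a subunit of the CCAAT-binding NF-Y complex, 1.23-fold (limma adjusted p = 0.0498 and 0.0470), and neither passed after cyclic loess (0.0882 and 0.0519). Most chaperones did not pass. Of 27 measured ER chaperones and folding enzymes, 0 rose, 2 fell and 25 did not pass, with a median of 0.03. UGGT2, a glycoprotein folding sensor, fell 1.53-fold and TXNDC5, a disulfide isomerase, 1.37-fold (limma adjusted p = 0.0248 and 0.0304), and after cyclic loess UGGT2 passed (0.0340), TXNDC5 did not (0.0524) and 1 other gene passed as higher. Named for their role, the ATF6 targets HYOU1, CALR and PDIA4 differed by 0.16, -0.13 and -0.12 and did not pass (limma adjusted p = 0.233, 0.370 and 0.356). Of 26 measured genes of ER-associated degradation, 1 rose and 1 fell, with a median of -0.12. In the lists of ATF6 relatives, chaperones and degradation genes, 16.7%, 7.41% and 7.69% passed, against 23.3% of all genes. DERL3, a derlin, rose by 0.32 on the log2 scale and UBE2G2, a ubiquitin-conjugating enzyme, fell 1.28-fold, and after cyclic loess neither passed while 1 other gene passed as higher. HERPUD1, which responds to more than one branch, differed by -0.19 without passing (limma adjusted p = 0.150; named for its role).

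In the neighbouring lists of NRF2, cell death and heat shock genes, 10.0%, 6.25% and 6.67% passed, against 23.3% of all genes. Of 20 measured NRF2 and glutathione genes, 1 rose (HMOX1, haem oxygenase, 1.28-fold) and 1 fell (TALDO1, transaldolase, 1.23-fold), with a median of 0.06. Neither passed after cyclic loess (limma adjusted p = 0.0786 and 0.0792) or quantile normalization (0.0559 and 0.0936). Of 16 measured genes of stress-induced cell death, 0 rose and 1 fell: PMAIP1 (NOXA), a BH3-only protein, was 1.36-fold lower (limma adjusted p = 0.0245, and 0.0327 after cyclic loess). Of 15 measured heat shock genes, 0 rose and 1 fell (HSPE1, the mitochondrial co-chaperonin, by 0.33 on the log2 scale), with a median of -0.08. After cyclic loess 1 of the 15 passed as higher beside HSPE1.

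**Figure D4:**
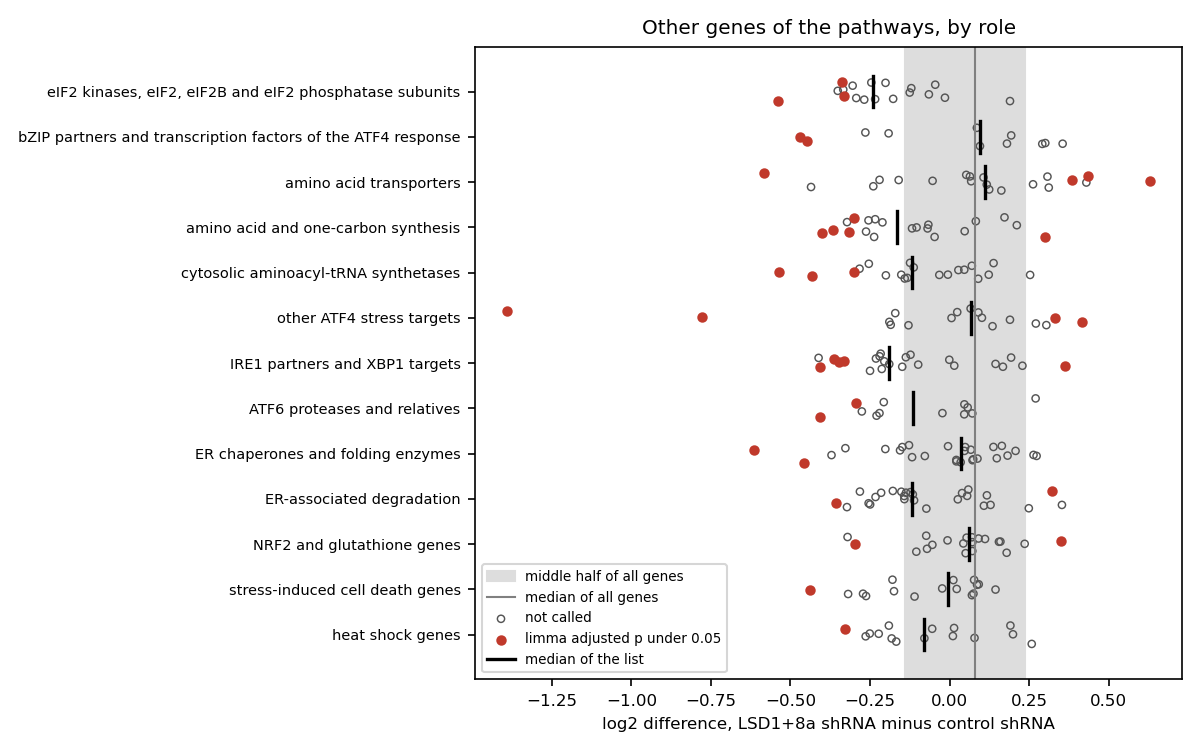
Log2 difference (x axis, LSD1+8a shRNA minus control shRNA) of the 245 other pathway genes by list, with genes past the test in red, the others as open circles and the list median as a black bar. The grey band is the interquartile range of all genes (-0.14 to 0.24), the grey line their median (0.08), and the list medians lie between -0.24 and 0.11.

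As checks on the arrays, KDM1A, which the hairpin targets in part, fell 1.32-fold (limma adjusted p = 0.0298, and 0.0586 after cyclic loess), a whole-gene value that does not isolate exon 8a. All 13 measured adrenergic neuroblastoma markers were above the background median on every array, and 3 of them rose and 1 fell (23.1% and 7.69%). Of 12 markers of substrate-adherent, mesenchymal-type neuroblastoma cells, 1 rose and 2 fell (8.33% and 16.7%, against 12.1% and 11.2% of all genes). Their median log2 difference was 0.15, with a range from -0.72 (VIM) to 0.30 (CD44). Their summed log2 signals were 68.4 and 69.6 on the LSD1+8a shRNA arrays and 68.5 and 69.6 with the control shRNA. Of these 12, 10 were above the background median on every array and 3 had a signal above that of the median gene. The adrenergic sums did not overlap, at 121.9 and 123.6 with the LSD1+8a shRNA against 120.4 and 121.2 with the control shRNA. Of 7 measured immune, endothelial, epithelial and glial markers, 2 rose (28.6%) and 0 fell, and 4 were above the background median on every array. The summed signals of these 7 were 37.4 and 37.9 with the LSD1+8a shRNA, against 36.0 and 36.4 with the control shRNA. The background median was also higher with the LSD1+8a shRNA, at 4.71 and 4.72 against 4.50 and 4.43. Its part in these sums was not tested. The leukocyte marker PTPRC was below the background median in both groups. After cyclic loess and with centred medians, no rise in the mesenchymal list or in the immune, endothelial, epithelial and glial list passed. Of the adrenergic markers, 3 rose and 0 fell after cyclic loess, and 1 rose and 1 fell with centred medians. The part of these marker differences in the stress gene values was not tested.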

How the data were processed

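Gene expression was measured on 4 single-colour arrays, from 250 ng of total RNA each. The deposited values are log2 signals, summarised by the authors using RMA (per the submitters' processing notes). Their software, annotation and build: not given in the sources used here. RMA keeps no detection call, and signals of different genes are not read as relative expression. Signal is used only to set genes beside others of like signal and beside array background. The table holds 70523 features, of which 67528 are transcript clusters. By GEO's platform annotation, 23781 clusters carry 1 symbol, 1543 carry several and 42204 none here. Of a gene's clusters, the one with the highest mean was used, which gave 22465 genes.

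LSD1+8a shRNA minus control shRNA was fitted with limma 3.58.1 in R 4.3.3 (lmFit, eBayes) on the values as deposited, with no filter or replicate term, and p-values were Benjamini-Hochberg adjusted over all 22465 genes at a threshold of 0.05. The fit was tested on simulated data. The SE of each difference is limma's. The small number of arrays limits the precision: each gene has 2 residual degrees of freedom, and 5.41 come from the other genes. The members and lists were chosen with earlier results of these data known. The rule for named genes takes the 10 members, KDM1A and up to 4 called genes per list by size (in a list with no call, the 2 with the highest level). Genes named for their role are outside it. List genes were matched by symbol or older symbol. Quantile normalization, cyclic loess and median centring were computed over all transcript clusters. Promoters came from RefSeq (GRCh38.p14). Same-numbered arrays did not deviate together (correlation 0.02 over genes). Figures were drawn with matplotlib 3.10.9.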

Additional observations from a re-analysis of the deposited data

How the results depend on the processing

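Of 22465 genes, 5245 passed as deposited (51.9% of them higher). With 1 array left out the count ran from 0 (without either control array; 9835 and 5339 genes at an unadjusted p under 0.05) to 2834. It was 7954 with the replicate number as a block, 3315 after quantile normalization (43.2% higher), 2611 after cyclic loess (26.9% higher), 3859 with centred medians (10.0% higher) and 176 at an adjusted p of 0.01. Of the 245 pathway genes, 36 passed as deposited, 0 to 16 with 1 array left out, 64 with the replicate block, 18 after quantile normalization, 14 after cyclic loess, 49 with centred medians and 0 at a limma adjusted p of 0.01 (85 had an unadjusted p under 0.05). Trended and robust moderation (38), a filter on level (39) and the mean over a gene's clusters (37) left that count within 1.5 times. The causes were not tested. The pairing of arrays by number is not given by the labels. As each group has 1 array of each number, the block leaves every difference as it was and cannot bear on the direction of a member. Among the 10 members, ERN1 and XBP1 changed sign with centred medians, ATF4 and HSPA5 after quantile normalization, and ATF4, HSPA5 and SLC7A11 after cyclic loess. SLC7A11 is limited by signal near background.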

Other observations

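In 1 of the 13 pathway lists, every gene differed in the same direction between the LSD1+8a shRNA arrays. All 17 measured genes of the list of other ATF4 stress targets read higher on LSD1+8a replicate 2 than on LSD1+8a replicate 1, with a median gap of 0.10 on the log2 scale. Over all genes, 56.8% read higher on that array, with a median gap of 0.02. In the control group, 10 of the same 17 genes read higher on control replicate 2, with a median gap of 0.01. GDF15, a secreted stress cytokine chosen here after its values were seen, read 7.27 and 8.35 with the LSD1+8a shRNA, against 7.53 and 7.48 with the control shRNA. Among the 10 genes, 6 read higher on LSD1+8a replicate 2 (60.0%), near the 56.8% of all genes. They were EIF2AK3, ATF6, ATF4, DDIT3, TRIB3 and SLC7A11, while SLC7A5 was higher on LSD1+8a replicate 1. The gap in the list of other ATF4 stress targets is a description of 2 arrays, and its cause was not tested.

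In the other lists that hold ATF4 targets, the genes did not all read higher on LSD1+8a replicate 2, but some lists leaned that way. NRF2 and glutathione genes also leaned that way, with 15 of 20 higher on that array (median gap of 0.08). Of 20 amino acid transporters, 7 read higher on LSD1+8a replicate 2 (median gap of -0.05), as did 11 of 20 aminoacyl-tRNA synthetase genes (median gap of 0.01) and 14 of 20 genes of amino acid and one-carbon synthesis (median gap of 0.08). Of 27 ER chaperones and folding enzymes, 8 read higher on LSD1+8a replicate 2 (median gap of -0.07), and 23 read higher on control replicate 2 than on control replicate 1 (median gap of 0.10).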
